A study of Mus musculus with 6 samples.

Results

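Urothelial cells were looked for in single-cell RNA libraries of the kidneys of 3 Sham and 3 DOCA-salt mice, and 50 of 76774 barcodes met the definition. They were chosen by their own measured counts of unique molecular identifiers (UMIs, each standing for 1 captured RNA molecule). A member needed at least 1000 UMIs, at most 50% mitochondrial UMIs, and a UMI of at least 2 of the 6 genes *Upk1a*, *Upk1b*, *Upk2*, *Upk3a*, *Krt5* and *Psca*. It also had 0 UMIs of *Ptprc* (immune cells), *Pecam1* (endothelium), *Col1a1* (fibroblasts) and *Slc12a1* (thick ascending limb), and the proximal tubule genes *Lrp2*, *Slc34a1*, *Slc5a12* and *Slc22a6* made up at most 0.2% of its UMIs. The limits on UMIs and mitochondrial RNA alone left 50910 barcodes, and these, by mouse, are the total behind the shares of urothelial cells below. The definitions with at most 20% mitochondrial UMIs or without the highest doublet scores instead use the barcodes that they keep as the total.

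The mice were young adult C57BL/6 males, with 1 library per mouse. The DOCA-salt mice had the left kidney taken out, and later carried a 50 mg pellet of deoxycorticosterone acetate (DOCA), a mineralocorticoid, while drinking 1% NaCl for 21 days. The Sham mice had a sham operation and plain water, so the loss of a kidney and DOCA-salt cannot be told apart. How much of the renal pelvis went into each digest was not given in the sources used here.

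Urothelium is the layered epithelium that lines the renal pelvis, ureter and bladder and keeps urine apart from the tissue beneath. Its basal cells carry keratin 5 and the transcription factor p63, its intermediate cells lie above them, and its superficial umbrella cells cover their urinary face with plaques built from the uroplakins. The kidney holds this epithelium as the lining of the pelvis, next to the collecting ducts that open into it.

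The members numbered 5, 8 and 7 in Sham 1 to 3 and 8, 12 and 10 in DOCA-salt 1 to 3, hence 20 Sham and 30 DOCA-salt cells. No mouse gave more than 12 cells, so each value below rests on few cells per mouse. The cells were as deep as the other epithelium or deeper, with median UMIs per member of 11594 to 20172 in the 6 mice, and their summed UMIs ranged from 85706 to 194323 per mouse. With 739690 UMIs over all members, a count of 0 allows a level of up to 4.06 CPM (UMIs of a gene per 1000000 UMIs of the summed cells), for counting error only. The 15 pairs of libraries shared 33 to 69 cell barcodes each, and 0 barcodes were members in more than 1 library.

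The genes of the definition are described here without a test, since they chose the cells. *Upk3a*, a transmembrane uroplakin of the plaques, had a UMI in 42 members and a level of 2321 ± 905 CPM (SD, n = 6 mice). *Upk1b*, a tetraspanin uroplakin, had one in 40 members (954 ± 225 CPM), and its relative *Upk1a* in 35 (1159.7 ± 521 CPM). *Upk2*, the partner of *Upk1a* in the plaque, was seen in 30 members (476 ± 226 CPM). The surface antigen *Psca* was seen in 36 members (1739 ± 341 CPM), and *Krt5*, the basal keratin, in 25, of which 8 were among the 20 Sham and 17 among the 30 DOCA-salt cells. Most members thus held several of these genes at once. Exactly 2 of the 6 were detected in 9 members, 3 in 10, 4 in 5, 5 in 16 and all 6 in 10.

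As a reference for free RNA, barcodes outside the definition were read for the same genes. Among 25418 proximal tubule barcodes (median UMIs per mouse from 7226 to 11707), the share with a UMI was 0.669% for *Upk1a*, 0.106% for *Upk1b*, 0.0354% for *Upk2*, 0.220% for *Upk3a*, 0.0275% for *Krt5* and 0.393% for *Psca*. Other epithelial cells, defined below, had shares of up to 1.64% (*Upk1a*), with 1.49% for *Upk3a*, 0.744% for *Psca* and 0% for *Krt5*. Their *Psca* counts were uneven, with 725 UMIs in 8 cells of DOCA-salt 2 and 225 UMIs in 6 cells of DOCA-salt 1. In the members the same shares ran from 50% for *Krt5* to 84% for *Upk3a*. The rule asked for at least 2 of these genes, so high shares in the members follow from it. They are no measure against free RNA. Near the limits, the lowest member had 1198 UMIs, the highest mitochondrial share of a member was 47.4%, and proximal genes reached 0.191% in a member against 0.268% in the nearest barcode left out by that limit, which alone left out 7. UMIs of the 6 genes ranged from 2 to 581 per member, with a median of 32. Just outside, 218 barcodes held exactly 1 of the 6 genes, 186 of them with a single UMI. The highest count of that gene in such a barcode was 688 UMIs, so the rule also left out barcodes with many UMIs of 1 gene. What those cells are was not tested.

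Not all members matched the label. The 4 members with just 2 UMIs of the 6 genes, 2 in Sham 2 and 1 each in Sham 3 and DOCA-salt 1, held no UMI of *Krt19*, *Krt5*, *Ly6d*, *Pparg* or *Trp63*. In their place they carried 58 to 176 UMIs of the water channel *Aqp1*, 99 to 308 of the small heat shock protein *Cryab* and 7 to 29 of *Bst1*, genes on the list of thin limb of Henle's loop. Pooled, *Aqp1* stood at 4107 CPM in these 4 cells and at 18.7 CPM in the other 46. These cells are called members by the rule and nothing more. A further Sham 2 member, with 7 UMIs of the 6 genes, held 375 UMIs of *Cryab*. The 6 thin limb genes summed to 94.7, 7347 and 2474 CPM in Sham 1 to 3 and 4993, 113 and 145 CPM in DOCA-salt 1 to 3, and without the 4 cells to 94.7, 5198 and 155 CPM and to 118, 113 and 145 CPM. A definition with at least 3 UMIs of the 6 genes, chosen after seeing the data, leaves them out. Of the named genes past the threshold against other epithelial cells below, 150 stayed past it in the same direction under that definition, and *Ly6a* and *Miox* did not.

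Lists of markers of other cells were summed next. The rule itself left out barcodes with a gene of immune, endothelial or fibroblast cells and limited proximal genes. Low sums of those lists thus follow in part from it. The immune list (9 genes, *Cd3e* and *Cd79a* at 0) summed to 21.0 to 27.3 CPM in the members of Sham mice and 51.5 to 83.1 CPM in those of DOCA-salt mice, beside 43.3 to 106 CPM in other epithelial cells. The endothelial list (7 genes, *Flt1* and *Tie1* at 0) summed to at most 27.2 CPM. The intercalated list (6 genes, *Atp6v0d2* and *Foxi1* at 0) reached at most 20.6 CPM, against 1751 to 2314 CPM in other epithelial cells. The proximal list stood higher, at 858 to 2345 CPM, and other epithelial cells held 1246 to 3796 CPM of it. The stromal list (9 genes, *Pdgfra* and *Lum* at 0) summed to 81.8 to 231 CPM, against 45.8 to 168 CPM, most of it from *Rgs5*, a gene of pericytes, which had 67 UMIs in 14 members. The principal list summed to 316 to 429 CPM against 2684 to 5302 CPM, the thick limb list to 72.0 to 168 against 839 to 2173 CPM. The distal convoluted list summed to 9.08 to 35.0 CPM against 1153 to 2315 CPM. The mesothelial list, which holds *Upk3b*, summed to 105 to 382 CPM against 94.2 to 135 CPM. The part of other cells in any result was not tested.

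The first question was whether the share of urothelial cells differed between the groups. It was 0.0562%, 0.111% and 0.0806% of barcodes in Sham 1 to 3 and 0.0920%, 0.132% and 0.120% in DOCA-salt 1 to 3, with exact 95% binomial intervals that span 0.0183% to 0.131% in the lowest mouse and 0.0681% to 0.230% in the highest. The groups overlapped, since Sham 2 lay above DOCA-salt 1, and the DOCA-salt mouse was higher in 8 of 9 pairs. The means were 0.0826 ± 0.0275% and 0.115 ± 0.0205% (SD, n = 3 each), a difference of 0.0320 percentage points (two-sided exact permutation p = 0.2, where 3 against 3 cannot go below 0.1).

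On the scale of cell numbers the log2 change was 0.49 (SE 0.36, edgeR quasi-likelihood test, adjusted p = 0.240 over 11 classes of barcodes). Of those classes 5, or 45.5%, passed the 0.05 threshold, so the urothelial cells were among the 6 that did not. The value depended on how the members were chosen. Without the 4 members with 2 UMIs the cells numbered 17 and 29 (difference in share 0.0413 points, log2 change 0.68, adjusted p = 0.172). With at least 3 of the 6 genes the DOCA-salt mouse was higher in 9 of 9 pairs (0.0469 points, exact permutation p = 0.1, log2 change 0.85, adjusted p = 0.0945). With at most 20% mitochondrial UMIs it was higher in 5 of 9 (0.0135 points, exact permutation p = 0.7, log2 change 0.17, adjusted p = 0.699). Scrublet, a program that scores doublets, was not applied to the members. At the share of barcodes expected to be doublets, its highest scores would take away 8 of the 20 Sham members and 0 of the 30 DOCA-salt members, and the log2 change was then 1.23 (adjusted p = 0.0343). The 8 were 1, 6 and 1 in Sham 1 to 3, which left 2 members in Sham 2, so this value rests largely on that mouse. Those 2 were both among the 4 members with thin limb genes. The other Sham 2 members, among them 1 with 347 UMIs of the 6 genes, were taken away. After thinning every barcode to 1000 UMIs before the choice, 15 barcodes met the definition in each group (log2 change -0.074, edgeR adjusted p = 0.884). These were not only members that remained, since Sham 1 had 5 before thinning and 7 after it. Thinning also lowers the counts of the genes that exclude a barcode, so barcodes left out before could enter. The change of sign is therefore no test of depth on the same cells.

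**Figure D1:**
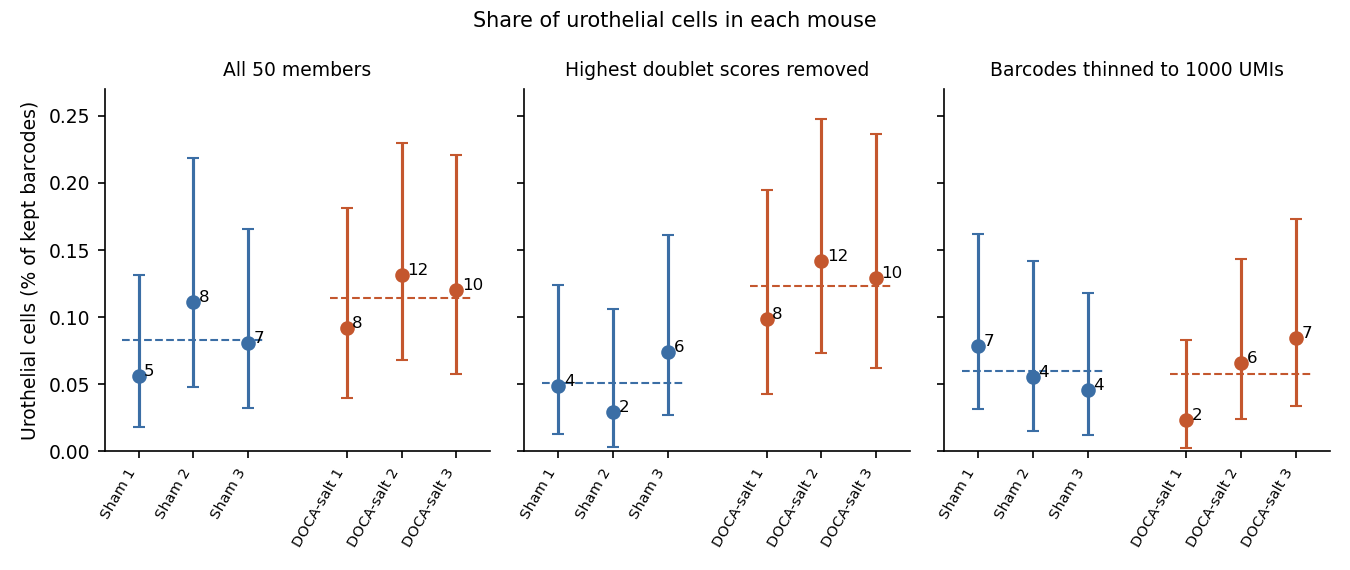
Urothelial cells as a percentage of kept barcodes (vertical axis) in each of the 6 mice (horizontal axis) under 3 definitions, with points for mice and their number of cells, exact 95% binomial intervals as bars and dashed lines for group means. With all 50 members Sham 2 (0.111%) lies above DOCA-salt 1 (0.0920%). Without the highest doublet scores, which leaves 2 cells in Sham 2, both with thin limb genes, the groups do not overlap, and after thinning they do.

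The next question was what sets the members apart from the other epithelium of the same kidneys. The comparison class was 4034 other epithelial cells, which met the same limits, held fewer than 2 of the 6 genes and had at least 1 UMI of the epithelial adhesion gene *Epcam*. They were distal convoluted, principal, intercalated and further *Epcam*-positive cells, 2129 from Sham and 1905 from DOCA-salt mice, with median UMIs of 8986.5 to 12893 per mouse. Sums per mouse were compared with edgeR, each mouse as a block. Of 11894 genes outside the definition 1012 (8.51%) were higher in the members and 1733 (14.6%) lower, at a median log2 change of -0.24 over all genes tested. Values below leave out the genes that chose the cells.

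Several keratins rose. *Krt15*, a keratin of basal and intermediate cells, stood at 442, 546 and 828 CPM in Sham 1 to 3 and 699, 2459.8 and 478 CPM in DOCA-salt 1 to 3. It had a UMI in 21 members, 5 Sham and 16 DOCA-salt. In Sham 1 it had 41 UMIs in 1 cell and 1 UMI in another, and in Sham 2 all 60 UMIs were in 1 cell. Every mouse was far above the 0 to 0.462 CPM of its other epithelial cells, and DOCA-salt 2 was the highest (log2 change 12.21, SE 0.33, edgeR adjusted p = 5.94e-28). *Krt19*, a keratin of simple and transitional epithelia, had a UMI in 43 members, all but 7, and stood at 1578, 955 and 898 CPM in Sham 1 to 3 and 772, 1579.8 and 1115 CPM in DOCA-salt 1 to 3, where the groups overlapped (log2 change 5.88, SE 0.35, edgeR adjusted p = 4.25e-17). The simple-epithelium pair *Krt8* and *Krt18* and their partner *Krt7*, which ducts share, rose less, with log2 changes of 1.30, 2.21 and 1.64. Of the 13 keratins listed 7 were tested, of which 6 rose and *Krt80* fell. *Krt17*, also a basal keratin, had 0 UMIs in the members, and *Krt20*, a keratin of umbrella cells, had 20 UMIs in 8 members.

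Of 12 listed genes of the basal and intermediate layers 9 were tested, of which 7 rose and none fell past the threshold, at a median log2 change of 2.50 over the 9. The integrins *Itga6* and *Itga3* had log2 changes of -0.65 and -0.26 and did not pass (edgeR adjusted p = 0.0535 and 0.630). *Trp63*, which encodes p63, was seen in 27 members at 113 ± 40.8 CPM (log2 change 5.02, SE 0.36, edgeR adjusted p = 2.36e-14). *Shh*, the hedgehog ligand that urothelium sends to the stroma beneath it, was at 52.6, 45.5 and 35.0 CPM in Sham 1 to 3 and 72.6, 61.8 and 55.4 CPM in DOCA-salt 1 to 3 (log2 change 6.20, SE 0.46, edgeR adjusted p = 3.78e-14). Its 3 DOCA-salt values lay above the 3 Sham values, and with 41 UMIs in all it had too few counts for the test between the groups. This order rested on the 4 members with thin limb genes, which held 0 UMIs of *Shh* and lowered the values of their mice. Without them Sham 2 lay above DOCA-salt 2, and the groups overlapped. The hemidesmosome gene *Itgb4* (log2 change 2.14, SE 0.31, edgeR adjusted p = 6.90e-07) and the laminin chain *Lamb3* (log2 change 4.30, SE 0.41, edgeR adjusted p = 6.73e-11), which fix cells to the basement membrane, rose too. *Krt14*, the keratin of the deepest basal cells, had too few counts for the test, with 109 UMIs in 8 members, of which 59 were in 1 cell.

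Plaque traffic was the next group. Of 6 genes related to the uroplakins or to their transport 5 were tested and 3 rose. *Snx31*, a sorting nexin that handles uroplakins in umbrella cells, stood at 368, 173 and 163 CPM in Sham 1 to 3 and 245, 232 and 582 CPM in DOCA-salt 1 to 3. All mice lay far above other epithelial cells, whose highest value was 1.43 CPM, and DOCA-salt 3 was the highest (log2 change 8.30, SE 0.35, edgeR adjusted p = 6.79e-22). *Rab27b*, a small GTPase of the vesicles that carry plaques to the surface, rose as well (log2 change 5.02, SE 0.26, edgeR adjusted p = 1.37e-18), and *Upk3b*, a uroplakin relative also made by mesothelium, rose by less (log2 change 3.00, SE 0.30, edgeR adjusted p = 1.12e-10). *Mal*, a raft protein of apical membranes, was at 872 ± 236 CPM in the members and 626 ± 54.7 CPM in other epithelial cells (log2 change 0.28, SE 0.18, edgeR adjusted p = 0.287). *Msln*, a mesothelial gene, had 42 UMIs in 15 members and 1 UMI in other epithelial cells, while the mesothelial genes *Wt1* and *Lrrn4* were at 0.

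Of 16 transcription factors of urothelium 12 were higher and 2 lower, at a median log2 change of 2.48. *Pparg*, the nuclear receptor that drives umbrella differentiation, was at 231, 54.6 and 105 CPM in Sham 1 to 3 and 136, 201 and 512 CPM in DOCA-salt 1 to 3, and its highest and lowest mice lay far apart (log2 change 7.79, SE 0.37, edgeR adjusted p = 4.21e-20). *Foxa1*, a pioneer factor of urothelium (log2 change 7.68, SE 0.44, edgeR adjusted p = 1.90e-17), and *Grhl3*, a grainyhead factor needed for umbrella cells (log2 change 9.31, SE 0.50, edgeR adjusted p = 2.65e-18), were nearly absent elsewhere, at 0.449 and 0.154 CPM. *Foxq1* stood at 1272 ± 379 CPM and *Klf5*, a Krüppel-like factor, at 400.4 ± 122 CPM, with log2 changes of 4.30 and 2.90. *Gata3*, also a factor of collecting ducts, rose by less (log2 change 1.33, SE 0.20, edgeR adjusted p = 1.31e-06). The duct factor *Elf5* had 2 UMIs in the members, 0.176 of the pooled level in other epithelial cells (exact 95% interval for counting error 0.0213 to 0.640), and *Sox4* fell (log2 change -1.07, SE 0.22, edgeR adjusted p = 2.57e-04).

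Among surface and defence genes 7 of 15 tested rose and 6 fell. *Ly6d*, a GPI-anchored surface protein of stratified epithelia, was at 3355, 2528 and 2497 CPM in Sham 1 to 3 and 2596, 2259 and 3891 CPM in DOCA-salt 1 to 3, high in all mice with overlap between groups (log2 change 11.96, SE 0.31, edgeR adjusted p = 3.95e-28). *Sprr1a*, a small proline-rich protein of cornified envelopes, was at 2209.7 ± 416 CPM (log2 change 7.54, SE 0.25, edgeR adjusted p = 4.28e-25). In the other direction *Defb1*, a beta-defensin of the distal nephron, stood at 106 ± 49.8 CPM in the members and 2219.9 ± 484 CPM in other epithelial cells (log2 change -4.55, SE 0.24, edgeR adjusted p = 9.76e-19), and the mucin *Muc1* fell too (log2 change -2.89, SE 0.49, edgeR adjusted p = 1.19e-05).

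The 15 largest rises included genes with almost no count elsewhere. *Krt15*, *Ly6d* and *Grhl3*, described above, were among them. *Cyp4f15*, a cytochrome P450 of fatty acid oxidation, had 52 UMIs in 18 members and none in other epithelial cells, at least 1118-fold higher when those are set to the floor of 3 counts over the class. *Dnmt3l*, a cofactor of DNA methyltransferases, had 47 UMIs in 19 members and none elsewhere, at least 1010.4-fold higher. *Capn13*, a calpain protease, had 109 UMIs in 31 members against 1 UMI. Its pooled level was 7030-fold higher, with a counting interval of 1236 to 280189. The gasdermin *Gsdmc2*, one of the surface and defence genes counted above (log2 change 10.60, SE 0.38, edgeR adjusted p = 2.82e-24), and the small proline-rich *Sprr2a3* (156 UMIs against 1) belong to families of near-identical copies, so their counts are uncertain. *Cers3*, a ceramide synthase of barrier lipids (log2 change 8.95, SE 0.53, edgeR adjusted p = 6.03e-17), and *Aldh3b2*, a lipid aldehyde dehydrogenase (log2 change 8.68, SE 0.54, edgeR adjusted p = 2.29e-16), were seen in 28 and 20 members. *Vsig2*, *Ankfn1*, *Ttc6*, *Fer1l4* and *Anxa8*, the last also counted among the surface and defence genes, complete the 15, with log2 changes of 8.80 to 10.86.

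**Figure D2:**
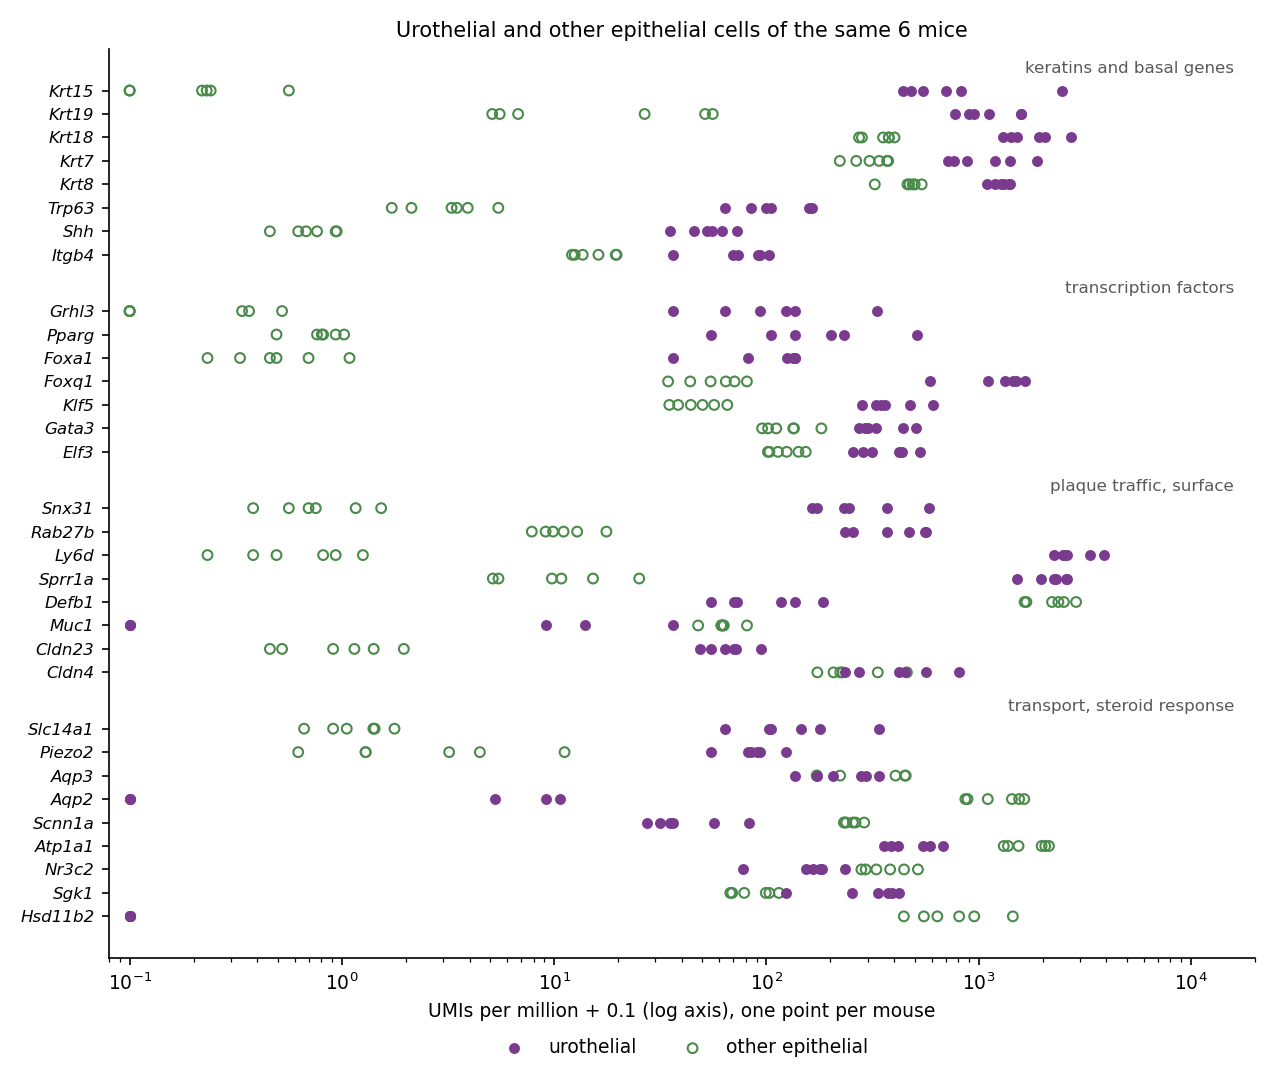
CPM plus 0.1 on a log axis (horizontal) for genes grouped by role (vertical), with 1 point per mouse for the urothelial cells and 1 for the other epithelial cells of the same 6 mice, where points at 0.1 have 0 UMIs. *Krt15*, *Snx31*, *Ly6d* and *Pparg* separate fully, while *Aqp3* overlaps and *Hsd11b2* is at 0 in the members.

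Junction genes split by member. Of 18 tested 8 rose and 3 fell, with a median log2 change of 0.48. *Cldn23* rose most (log2 change 5.99, SE 0.43, edgeR adjusted p = 2.29e-14), *Perp*, a desmosomal membrane protein, by 2.63, and *Cldn4*, a claudin of tight epithelia, by 0.56 (adjusted p = 0.0230 by edgeR, 60 of 329 UMIs in the 4 members with thin limb genes). *Cldn3*, a claudin of the distal nephron, stood at 0 CPM in 4 mice and fell (log2 change -3.47, SE 0.46, edgeR adjusted p = 1.17e-07). *Cdh1*, E-cadherin, was at 586 ± 89.3 CPM in members and 526 ± 97.0 CPM in other epithelial cells, a log2 change of -0.0040 (SE 0.18).

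Transport genes were mostly lower, 10 of 16 tested with 2 higher and a median log2 change of -1.59. *Slc14a1*, the urea transporter UT-B of urothelium, was at 179, 145 and 105 CPM in Sham 1 to 3 and 63.5, 103 and 339 CPM in DOCA-salt 1 to 3. It had at most 1.67 CPM in the other epithelial cells of any mouse (log2 change 6.83, SE 0.39, edgeR adjusted p = 1.84e-17). *Piezo2*, a stretch-gated channel, rose (log2 change 4.74, SE 0.43, edgeR adjusted p = 1.03e-11), while its relative *Piezo1*, with 24 of 59 UMIs in the 4 members with thin limb genes, fell (log2 change -0.91, SE 0.27, edgeR adjusted p = 0.0120). *Aqp2*, the vasopressin-regulated water channel, had 3 UMIs in the members and 59497 in other epithelial cells, a ratio of 0.00325 (exact 95% interval for counting error 6.71e-04 to 0.00950). The basolateral water channel *Aqp3* stood at 238 ± 78.6 CPM and 313 ± 137 CPM (log2 change -0.47, SE 0.22, edgeR adjusted p = 0.123). The 3 subunits of the epithelial sodium channel, *Scnn1a*, *Scnn1b* and *Scnn1g*, fell by 2.60, 2.68 and 1.89 on the log2 scale.

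Since DOCA acts through the mineralocorticoid receptor, the pathway was read in the members. Of 12 genes 8 were lower and 1 higher, with a median log2 change of -1.17. The receptor *Nr3c2* was present in 34 members, at 179, 182 and 233 CPM in Sham 1 to 3 and 154, 77.2 and 166 CPM in DOCA-salt 1 to 3, and lower than in other epithelial cells (log2 change -1.38, SE 0.20, edgeR adjusted p = 8.17e-07). *Hsd11b2*, the enzyme that keeps glucocorticoids from the receptor in its target cells, had 0 UMIs in all 50 members against 808 ± 363 CPM in other epithelial cells, at least 199.8-fold lower with the members at the floor of 3 counts. *Sgk1*, a kinase induced by both steroid receptors, was the 1 gene that rose, at 317 ± 111 CPM against 88.6 ± 19.6 CPM (log2 change 1.61, SE 0.21, edgeR adjusted p = 1.00e-07). The glucocorticoid receptor *Nr3c1* was at 50.8 ± 25.0 CPM and 54.3 ± 8.10 CPM (log2 change -0.35, SE 0.30, edgeR adjusted p = 0.461).

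The study turned on ATP release by pannexin 1 and its receptors. In the members 14 of these 22 genes had too few counts for the test. Of the 8 tested 1 rose and 2 fell, *P2ry14* and *Nt5e*. *Panx1*, the channel, had 10 UMIs in 10 members, which came to 10.5, 9.09 and 23.3 CPM in Sham 1 to 3 and 9.08, 10.3 and 20.8 CPM in DOCA-salt 1 to 3, above the other epithelial mean of 1.95 CPM in each mouse (log2 change 2.60, SE 0.64, edgeR adjusted p = 0.00202). At this depth 1 UMI already puts a mouse above that mean, so the order in each mouse says only that the gene was detected there. *P2rx7*, *Nlrp3*, *Casp1* and *Il1b* had 0 UMIs, and at this depth a count of 0 allows a level of up to 4.06 CPM. Other epithelial cells, with far more UMIs, showed means of 0.662, 0.303, 0.0838 and 2.39 CPM for these genes, all below that bound. *P2ry14*, a receptor for UDP-sugars, had 0 UMIs too and was at least 4.35-fold lower.

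Of 13 inflammation genes tested 1 rose and 7 fell. *Il18*, a cytokine of epithelia, was the rise, with 15 UMIs in 7 members (log2 change 2.97, SE 0.58, edgeR adjusted p = 1.13e-04). *Lcn2*, the iron-binding lipocalin of injured tubules (log2 change -3.06, SE 0.39, edgeR adjusted p = 6.58e-08), and the complement gene *C3* (log2 change -2.88, SE 0.50, edgeR adjusted p = 1.73e-05) fell. Injury and repair genes went both ways, 8 higher and 6 lower of 16. *S100a6*, a calcium-binding protein, was the largest of these rises, at 11674, 10229 and 7129 CPM in Sham 1 to 3 and 6918, 6083 and 12101 CPM in DOCA-salt 1 to 3, with no mouse below 6083 CPM against at most 596 CPM in other epithelial cells (log2 change 4.61, SE 0.21, edgeR adjusted p = 2.26e-20). *Spp1*, osteopontin, ranged from 1365 CPM in Sham 3 to 22853 CPM in DOCA-salt 3 (log2 change 0.68, SE 0.20, edgeR adjusted p = 0.00963), and *Ccn2*, a matrix growth factor, fell with 2 UMIs left. *Mki67*, a gene of dividing cells, had 1 UMI and *Top2a* 0 in the members. Among growth factors 6 of 19 rose, with *Wnt5a* (log2 change 2.97, SE 0.34, edgeR adjusted p = 3.61e-09), *Fgfr3* (log2 change 3.44, SE 0.41, edgeR adjusted p = 1.54e-08) and *Tgfa* (log2 change 2.93, SE 0.36, edgeR adjusted p = 2.16e-08) beside *Shh*, and 4 fell. Of 19 genes known to respond to dissociation 3 rose and 1 fell.

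Set against the 870 principal cells alone, the nearest duct cells, 869 of 7650 genes tested (11.4%) were higher and 955 (12.5%) lower. The rises above held here as well for *Krt15* (log2 change 12.51), *Ly6d* (12.47), *Snx31* (9.50) and *Pparg* (8.23). Keratins rose in 6 of 6 tested and transcription factors in 9 of 16, where *Gata3* no longer passed (log2 change 0.37, edgeR adjusted p = 0.243). *Aqp3* was lower than in principal cells (log2 change -1.97), but it was a gene by which those were chosen and carries no test.

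**Figure D3:**
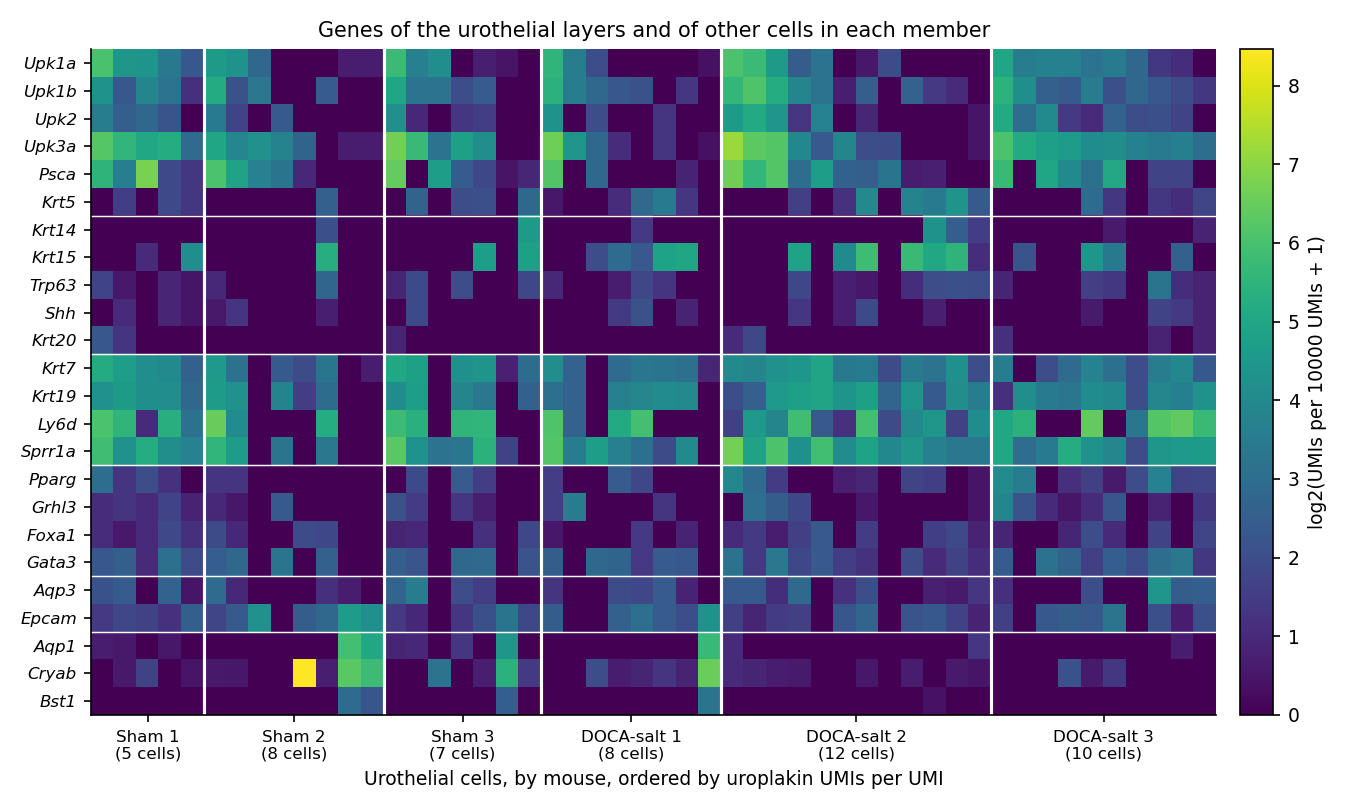
Each of the 50 members is a column, ordered by mouse and, within a mouse, by its share of uroplakin UMIs, and each gene is a row, with color giving log2 of UMIs per 10000 plus 1. The order is by uroplakins, which the rule itself favours in cells without *Krt5*, so the place of *Krt5* and *Krt15* along it is no comparison. There are 4 columns that hold *Aqp1*, *Cryab* and *Bst1* without *Krt19* or *Ly6d*.

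The members were not uniform. *Krt5* was used to choose them, so the split by it is a description without a test. A cell without *Krt5* also needed 2 of the other 5 genes, which are 4 uroplakins and *Psca*, so the rule itself favours these in cells without *Krt5*, and they are not compared. *Krt5* was detected in 25 members (8 Sham, 17 DOCA-salt, median 17288 UMIs), and 21 further members with 3 or more UMIs of the 6 genes lacked it (9 Sham, 12 DOCA-salt, median 9768 UMIs), with both kinds in all 6 mice. Sham 2 gave 1 *Krt5* cell, so its part in the counts of mice below rests on that cell. *Krt15* stood at 1848 CPM in the first and 14.1 CPM in the second, and was higher in the *Krt5* cells of 6 of 6 mice. *Trp63* (189 and 42.3 CPM) and *Shh* (86.1 and 18.8 CPM) were each higher in 5 of 6 mice, and *Itgb4* (116 and 37.6 CPM) in 6. *Cd44*, a hyaluronan receptor, was seen in 18 of the 25 *Krt5* cells and 0 of the 21 others, although the others were also shallower. The stretch channel *Piezo2* was at 147 and 23.5 CPM.

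Some genes known from the upper layer were lower in the *Krt5* cells. Genes that go with the uroplakins may share in what the rule favours in cells without *Krt5*, and that part was not tested. *Snx31* was at 140 CPM in the *Krt5* cells and 770.1 CPM in the others, lower in the *Krt5* cells of 6 of 6 mice, as was *Upk3b* (81.5 and 352 CPM). *Krt20* was at 11.6 and 70.4 CPM. *Pparg* (168 and 437 CPM) was lower in 4 mice and *Grhl3* (88.5 and 309.9 CPM) in 5. *Krt19* (1453 and 1226 CPM) and *Ly6d* (3592 and 2606 CPM) were present in both kinds of cell. Each was lower in the *Krt5* cells of the 3 Sham mice and higher in those of the 3 DOCA-salt mice. Some mice gave only 1 or 2 cells of a kind, and this order was not tested. The genes of this split include ones known from the basal and the superficial layer of urothelium, but the position of a cell was not measured. *Krt5* cells were 3 of 5, 1 of 8 and 4 of 7 members in Sham 1 to 3 and 5 of 8, 7 of 12 and 5 of 10 in DOCA-salt 1 to 3. The lower Sham total, 8 of 20 against 17 of 30, thus came mainly from Sham 2. The part of this make-up in the group comparison was not tested.

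Within the urothelial cells DOCA-salt was then set against Sham. Of 2168 genes tested 0 were higher (0%) and 0 lower (0%) by edgeR's quasi-likelihood test with Benjamini-Hochberg adjustment, and DESeq2 also called 0. An unadjusted p below 0.05 was found for 71 genes. That is less than a share of 0.05 of the genes tested, the share that would pass with no change at all. The smallest adjusted p was 0.9998. The values that follow are of the 5 genes with the smallest p in each direction, none past the threshold.

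*Ltbp1*, which stores latent TGF-beta in the matrix, stood at 31.6, 36.4 and 11.7 CPM in Sham 1 to 3 and 99.9, 242 and 96.9 CPM in DOCA-salt 1 to 3. The groups did not overlap (log2 change 2.45, SE 0.62, edgeR adjusted p = 0.9998), as in other epithelial cells, where it was at 2.87 to 3.58 CPM in Sham and 8.09 to 10.5 CPM in DOCA-salt mice. *Il17re*, a subunit of the interleukin-17C receptor, stood at 52.6, 72.7 and 81.7 CPM in Sham 1 to 3 and 145, 175 and 222 CPM in DOCA-salt 1 to 3, again without overlap (log2 change 1.41, SE 0.40, edgeR adjusted p = 0.9998). *Phlda1*, a pleckstrin-homology gene, was at 42.1, 9.09 and 81.7 CPM in Sham 1 to 3 and 109, 422 and 132 CPM in DOCA-salt 1 to 3, and DOCA-salt 2 stood apart above the rest (log2 change 2.44, SE 0.71, edgeR adjusted p = 0.9998). The lipid synthesis genes *Elovl6*, a fatty acid elongase, and *Scd2*, a desaturase, were at 90.9 to 105 and 105 to 109 CPM in the Sham mice and at 144 to 415 and 175 to 367 CPM in the DOCA-salt mice, with log2 changes of 1.41 and 1.24.

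In the other direction *Fabp5*, a fatty acid carrier of stratified epithelia, was at 316, 273 and 187 CPM in Sham 1 to 3 and 127, 61.8 and 125 CPM in DOCA-salt 1 to 3. It did not overlap between groups and had 0 UMIs in the 4 cells with thin limb genes (log2 change -1.33, SE 0.39, edgeR adjusted p = 0.9998). *Id3*, an inhibitor of basic helix-loop-helix factors, was at 252, 164 and 397 CPM in Sham 1 to 3 and 90.8, 124 and 76.2 CPM in DOCA-salt 1 to 3 (log2 change -1.42, SE 0.42, edgeR adjusted p = 0.9998). The nuclear receptor *Esrrg* was at 199.8, 90.9 and 280.0 CPM in Sham 1 to 3 and 36.3, 61.8 and 13.8 CPM in DOCA-salt 1 to 3, and 33 of its 71 UMIs lay in those 4 cells, 3 of which were Sham (log2 change -2.21, SE 0.57, edgeR adjusted p = 0.9998). Without them *Esrrg* was at 199.8, 0 and 68.7 CPM in Sham 1 to 3 and 13.1, 61.8 and 13.8 CPM in DOCA-salt 1 to 3, and the groups overlapped. *Sh3d19* and *Retreg1* had log2 changes of -1.28 and -1.33, with 25 of 121 and 34 of 90 UMIs in those cells, and without them their groups overlapped too. For the other 7 of these 10 genes the groups did not overlap without the 4 cells. The 10 were chosen by their p between these same groups, which favours such separation, so this count carries no weight as a test.

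Listed genes of the urothelium and of the mineralocorticoid pathway did not pass either. The 3 DOCA-salt values of *Nr3c2*, given above, lay below the 3 Sham values without passing the test (log2 change -0.59, SE 0.38, edgeR adjusted p = 0.9998). This order rested on the 4 cells with thin limb genes, of which the 2 in Sham 2 held 3 and 9 UMIs of *Nr3c2*. Without those 4 cells the groups overlapped for *Nr3c2*. In the other epithelial cells *Nr3c2* fell past the threshold (log2 change -0.53, SE 0.13, edgeR adjusted p = 0.0399), and the difference between the classes was -0.020 on the log2 scale (edgeR adjusted p = 1). For *Sgk1* the groups overlapped (log2 change -0.46, SE 0.42, edgeR adjusted p = 0.9998). *Pparg* was at 54.6 to 231 CPM in Sham and 136 to 512 CPM in DOCA-salt mice (log2 change 1.15, SE 0.59, edgeR adjusted p = 0.9998), *Krt15* at 442 to 828 and 478 to 2459.8 CPM (log2 change 1.06, SE 0.57, edgeR adjusted p = 0.9998), and *Spp1* at 1365 to 7756 and 6988 to 22853 CPM (log2 change 1.49, SE 0.59, edgeR adjusted p = 0.9998). None of the 10 transcription factors, 5 keratins, 5 basal genes or 11 injury genes that could be tested passed.

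**Figure D4:**
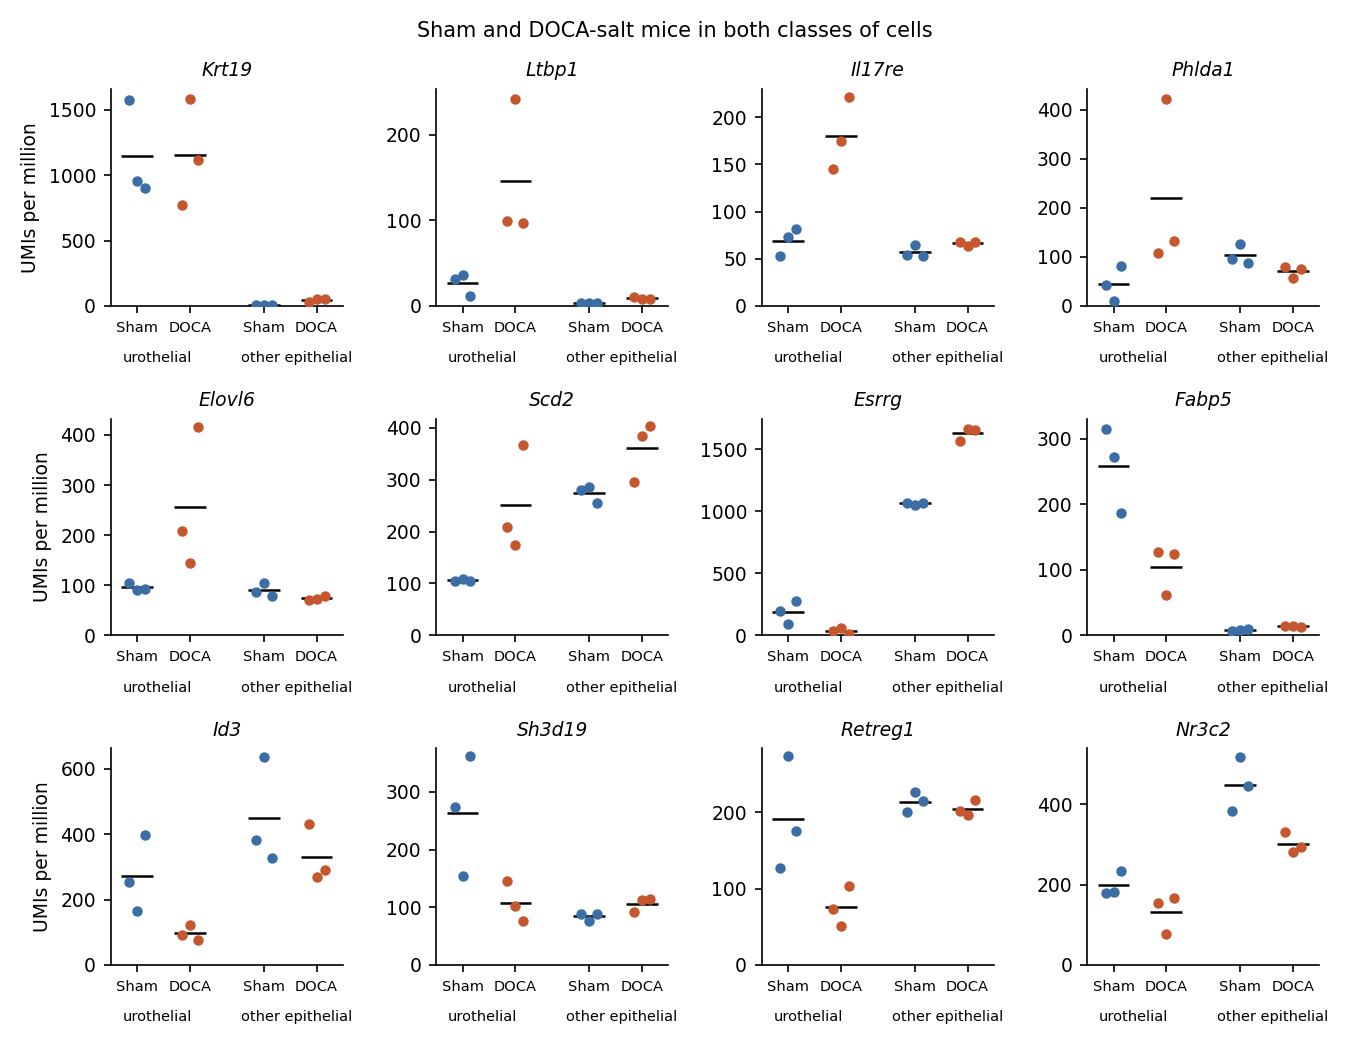
CPM (vertical axis, from 0) in urothelial and in other epithelial cells of Sham and DOCA-salt mice, with 1 point per mouse and a line for the mean of 3, for *Krt19*, *Nr3c2* and the 10 genes with the smallest p in urothelial cells. In urothelial cells the groups do not overlap for *Ltbp1* (11.7 to 36.4 against 96.9 to 242 CPM), while *Krt19* separates them in the other epithelial cells (5.01 to 6.66 against 26.6 to 55.8 CPM).

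The same contrast in the other epithelial cells called 641 of 13888 genes higher (4.62%) and 467 lower (3.36%), on sums of many more cells. Whether the change differed between the classes was tested directly, and the difference passed for 17 of 12927 genes upward (0.132%) and 34 downward (0.263%). Of these 51 genes, 16 had at least 50% of their urothelial UMIs in 1 cell. The cell make-up of the other class moved with the group, as distal convoluted cells were 9.20% to 15.4% of it in Sham and 22.8% to 29.3% in DOCA-salt mice. Principal cells moved the other way, from 21.2% to 32.2% of it in Sham mice to 13.8% to 17.0% in DOCA-salt mice. The part of this make-up in the differences was not tested.

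*Krt19* was the gene of the lists with the smallest p in this test. In the other epithelial cells it rose from 6.66, 5.01 and 5.44 CPM in Sham 1 to 3 to 26.6, 51.3 and 55.8 CPM in DOCA-salt 1 to 3, without overlap (log2 change 3.01, edgeR adjusted p = 7.87e-04). In the urothelial cells it was high in both groups and its values overlapped between them (log2 change 0.04, SE 0.40, edgeR adjusted p = 0.9998). The difference was -2.86 on the log2 scale (SE 0.39, edgeR adjusted p = 4.75e-10). *Phlda1*, *Esrrg* and *Fabp5*, named above, also differed between the classes, by 2.90, -2.80 and -1.99 on the log2 scale (edgeR adjusted p = 2.91e-05, 2.91e-05 and 0.0176), and in the other epithelial cells they were at 95.8, 126 and 86.8 CPM in Sham 1 to 3 and 78.7, 57.7 and 75.2 CPM in DOCA-salt 1 to 3, at 1071, 1054 and 1069.7 CPM in Sham 1 to 3 and 1563, 1665 and 1652 CPM in DOCA-salt 1 to 3 and at 7.32, 8.95 and 10.2 CPM in Sham 1 to 3 and 13.8, 14.7 and 13.1 CPM in DOCA-salt 1 to 3. The urothelial groups overlapped for *Esrrg* without the 4 cells with thin limb genes, as given above.

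*Havcr1*, which encodes the injury marker KIM-1, also passed, but its 12 urothelial UMIs were all in 1 Sham 3 cell, a member with 2 UMIs of the 6 genes. That cell held 19 of the 22 UMIs of *Fst*, follistatin, as well. The urea transporter *Slc14a2* had 32 of its 46 UMIs in the 4 cells with thin limb genes, and *Cxcl10*, an interferon-induced chemokine, had 14 UMIs in 2 cells. These 4 differences rest on 1 or 2 cells or on the 4 cells with thin limb genes.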

How the data were processed

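Kidneys of 3 Sham and 3 DOCA-salt mice were measured with the 10x Genomics 3′ method, 1 library per mouse. The authors deposited unnormalized UMI counts for barcodes called as cells, from Cell Ranger (8.0.1 in the file headers, 9.0.0 in the submitters' processing notes) on GRCm39. The release of the gene annotation was not given in the sources used here. The members and the gene lists were chosen with earlier results of these data known.

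Counts of the members, of other epithelial cells and of principal cells (at least 3 of 7 principal genes, no UMI of *Atp6v1g3* and *Slc4a1*) were summed per mouse, where a mouse gave at least 5 members, and compared with edgeR 4.0.16 (R 4.3.3), its filter on low counts, TMM scaling and its quasi-likelihood test. P-values were adjusted by Benjamini and Hochberg's method across the genes tested, with a threshold of 0.05. The mouse was a block wherever 2 classes of the same mice were compared. The standard error is the log2 change over the square root of F. CPM are of the unscaled sums, given as mean ± SD over mice. Genes that chose either class, *Epcam* among them, were left out of the tests. Shares were compared with a two-sided exact permutation test (scipy 1.17.1), and their intervals are exact (Clopper-Pearson) and cover counting error only. Named genes were those of the lists, the 15 largest rises and 8 largest falls past the threshold with at least 50 CPM and no overlap of mice between the classes, and, between the groups, the 5 smallest p in each direction. Doublet scores came from Scrublet (scanpy 1.11.5), at 0.8% per 1000 barcodes, and the DoubletFinder calls of the study were not used here. The tests were run first on simulated counts with known changes in genes outside the lowest levels. Of 4-fold changes 89% were recovered against other epithelial cells, 80% between the groups in urothelial cells and 19% for the difference. Of 2-fold changes 29%, 19% and 1% were recovered, so most changes of that size would be missed. The simulation changed 200 genes at once in each comparison, and otherwise gave a gene the same mean in all mice. These shares hold for that setting only and are not the chance of finding a change of that size in the data. Alternatives were DESeq2 1.42.0, its size factors, no filter on low counts, stricter and looser limits on the members, thinning, doublet removal, each mouse left out and the replicate block. A member definition with at least 3 UMIs of the 6 genes was chosen after seeing the data.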

Additional observations from a re-analysis of the deposited data

Results flagged for a closer look

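The change with DOCA-salt differed between urothelial and other epithelial cells for 5 listed genes by edgeR's test of the difference (adjusted over 12927 genes). *Krt19* had a difference of -2.86 on the log2 scale (adjusted p = 4.75e-10) and lay between -3.07 and -2.64, past the threshold, in every alternative run. *Havcr1* (-14.00), *Fst* (-4.33) and *Cxcl10* (-10.09) rested on 12, 22 and 14 urothelial UMIs, of which 12, 19 and 8 were in 1 cell, so the sizes of these fitted values are no measure of a fold change. *Slc14a2* (2.62) had 46 UMIs, of which 28 were in 1 DOCA-salt 1 cell with thin limb genes.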

How the results depend on the processing

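The difference in share changed sign after thinning to 1000 UMIs (-0.00244 percentage points, permutation p = 1), as did the log2 change of cell number (-0.074), which passed the threshold only with doublet scores removed (1.23). Of the 8 members removed by doublet scores 6 were from Sham 2, where only cells with thin limb genes were left. The thinned counts come from a new choice of barcodes, with 7 in Sham 1 against 5 before thinning. Without 1 mouse the difference was 0.0188 to 0.0462 points and the log2 change 0.27 to 0.74. The same mouse number does not pair mice (correlations of -0.71 to -0.20), and with the replicate block the log2 change was 0.48.

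Against other epithelial cells 845 to 1006 genes were higher and 1467 to 1706 lower without 1 mouse, and 1046 were lower with at least 10 members per mouse. No named gene reversed in 2278 repeats, and 154 lost the threshold. Against principal cells 757 to 833 were higher and 786 to 887 lower, and 1619 were lower without the filter on low counts. Leaving out the mouse as a block moved no count of these comparisons by over 1.5 times.

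DOCA-salt against Sham in urothelial cells called 4 genes higher and 7 lower without the filter. The higher were *Ltbp1*, *Phlda1*, *Ankrd46* and *Sprr2f* (51 of 52 UMIs in 1 cell). The lower were *Esrrg*, *Txnip*, *Sdk1*, *Gramd1b*, *Cxcl10*, *Lypd2* and *Rbfox1*. A Sham 3 member with thin limb genes held 76 of 80 UMIs of *Lypd2* and 96 of 101 of *Rbfox1*. For *Gramd1b* 30 of 61 UMIs, and for *Cxcl10* 8 of 14, were in 1 cell. Without 1 mouse 0 were higher and 0 to 1 lower (*Sema5a*, without DOCA-salt 1). In other epithelial cells DOCA-salt against Sham called 307 to 813 higher and 146 to 701 lower without 1 mouse, and 260 and 131 with the replicate block. The difference called 9 to 21 upward and 18 to 58 downward without 1 mouse, 6 and 9 with DESeq2, 27 upward with at least 3 UMIs of the 6 genes and 11 downward with at least 3 of the genes. *Fst* reversed in the last 2 definitions (6.50 and 6.70) and without Sham 3, with -11.29 to 6.42 over the mice left out. With at least 10 members per mouse or doublet scores removed, too few Sham mice remained for the group comparison and the difference. Depth and 5 to 12 cells per mouse limit all of these values.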

Other observations

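Beyond the lists, the difference between the classes also passed for genes spread over many members, named here after their values were seen. *Gpc5*, a glypican, had a difference of 3.87 on the log2 scale (edgeR adjusted p = 3.85e-14, 182 UMIs in 21 members), and *Crybg1* one of 2.58 (adjusted p = 7.20e-06, 157 UMIs in 36 members). In the other direction *Ctnnd2*, a delta-catenin, stood at -4.65 (adjusted p = 7.70e-11, 104 UMIs in 27 members), *Basp1* at -3.39 (121 UMIs in 25 members) and *Pdlim1*, a cytoskeletal adaptor, at -2.86 (179 UMIs in 37 members). The antigen presentation genes *H2-Ab1*, *H2-Eb1* and *Cd74* stood at -3.79, -2.74 and -2.48, with 19 of 32, 22 of 37 and 22 of 44 UMIs in 1 cell.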
